A study of Rattus norvegicus with 12 samples.

Results

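The genes described here are members of the Bcl2 family, the proteins that set the threshold for cell death at the mitochondrion. They were taken as every non-control probe of the array whose gene name equals 1 of 10 listed symbols: Bcl2, Bcl2l1, Bcl2l2, Mcl1, Bax, Bcl2l11, Bad, Bbc3, Hrk and Pmaip1. Of the 10 genes, 9 had a probe, with 20 probes on 47 spots among the 41012 probes and 33212 gene names of the whole array. No probe carried the name Pmaip1 (Noxa, a death-promoting member), so it has no value here. The Noxa1 of the array is a different gene, an activator of NADPH oxidase.

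The cells were PC12, an established line from a rat adrenal pheochromocytoma that grows neurites when PACAP38, a neuropeptide of the secretin and glucagon family, acts on it. They were kept in medium with fetal bovine and horse serum on collagen-coated dishes and received PACAP38 at 1e-07 M for 5, 10, 15, 30, 60 or 120 min. Each time point had its own control, called only control in the labels, and the labels do not say whether a vehicle was added. At every time point the RNA of each treatment was pooled (n = 6), so the spread between cultures cannot be seen. Both pools of a time point shared 2 two-colour arrays, with PACAP38 in Cy5 on one and in Cy3 on the other, which gave 12 arrays. A time point is therefore 1 replicate, so a single time point allowed no test of PACAP38 against control. The Bcl2 family values are given for both arrays, and an SD of 2 arrays describes arrays of the same pools only.

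Bcl2 family proteins share short homology stretches and act on the outer mitochondrial membrane. The pro-survival members bind and hold back the others, Bax makes the pores through which cytochrome c leaves, and the BH3-only members start the process by occupying the pro-survival proteins or by activating Bax. In cells of the neuronal and chromaffin lineage the BH3-only genes are known for being switched at the level of transcription when trophic support is lost or regained.

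Ratios are those of the processed intensities, PACAP38 over control within an array, and where 1 fold is given it is the geometric mean over the 2 arrays. A probe was called measured where at least 1 channel was well above background on both arrays. It was counted as higher where each of the 2 arrays gave a fold of at least 2 with a spot p-value under 0.01, and as lower where each gave at most 0.5 with such a p-value. Levels were not compared between probes or between arrays, and in these bulk RNA pools fewer cells of a type and less RNA per cell cannot be told apart. The treatment could be seen in its usual early genes: the Fos ratio was 16.8-fold at 10 min and that of Egr1 60.7-fold at 30 min. Only 1 of these 2 genes had the control well above background on all 12 arrays, so a fold may rest on a dim control. Of 11 chromaffin markers 10 had a probe, all above background in the control channel of all 12 arrays and 1 of them, Scg2, counted as higher at 120 min (2.04-fold), while 5 of 5 adrenal cortex and 3 of 3 endothelial markers were not well above background in the control channel of any array. Of the fibroblast, glia and leukocyte lists, 2 of 4, 1 of 4 and 1 of 3 genes were above background in the control on all arrays. None of them was counted at 120 min, and their part in the results was not tested. Of the fibroblast list Pdgfra stood at 0.40 and 0.52 on the arrays of 120 min, and of the leukocyte list Cd68 stood at 1.97 and 1.91. The value of the glia list's measured gene is not reported here.

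Of the 16 Bcl2 family probes measured at each time from 5 to 30 min none was counted. Few probes of the whole array were: 0% at 5 min, and 0.158%, 0.214% and 0.594% higher and 0%, 0.0635% and 0.245% lower at 10, 15 and 30 min, so a count of 0 among 16 is near the background. At 60 min 1 of the 18 measured probes was counted as higher (Mcl1) and 1 as lower (Bbc3), beside 1.79% higher and 0.782% lower among all 19690 measured probes. At 120 min 4 of 17 measured probes were higher, those of Mcl1 and Bcl2l11, and 3 were lower, those of Bbc3 and Hrk. The background at 120 min was 4.24% higher and 3.37% lower among 18586 measured probes. These counts depended on the scaling described below: with either normexp setting no probe was counted at 60 min, and at 120 min Bcl2l11 was no longer counted, nor was Hrk with median centring. With the processed intensities each of the 4 genes was carried by all its probes that were well above background in both channels, and each direction held a gene with more than 1 such probe. The higher genes were 1 pro-survival gene and 1 BH3-only gene, and the lower ones were 2 BH3-only genes.

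**Figure D1:**
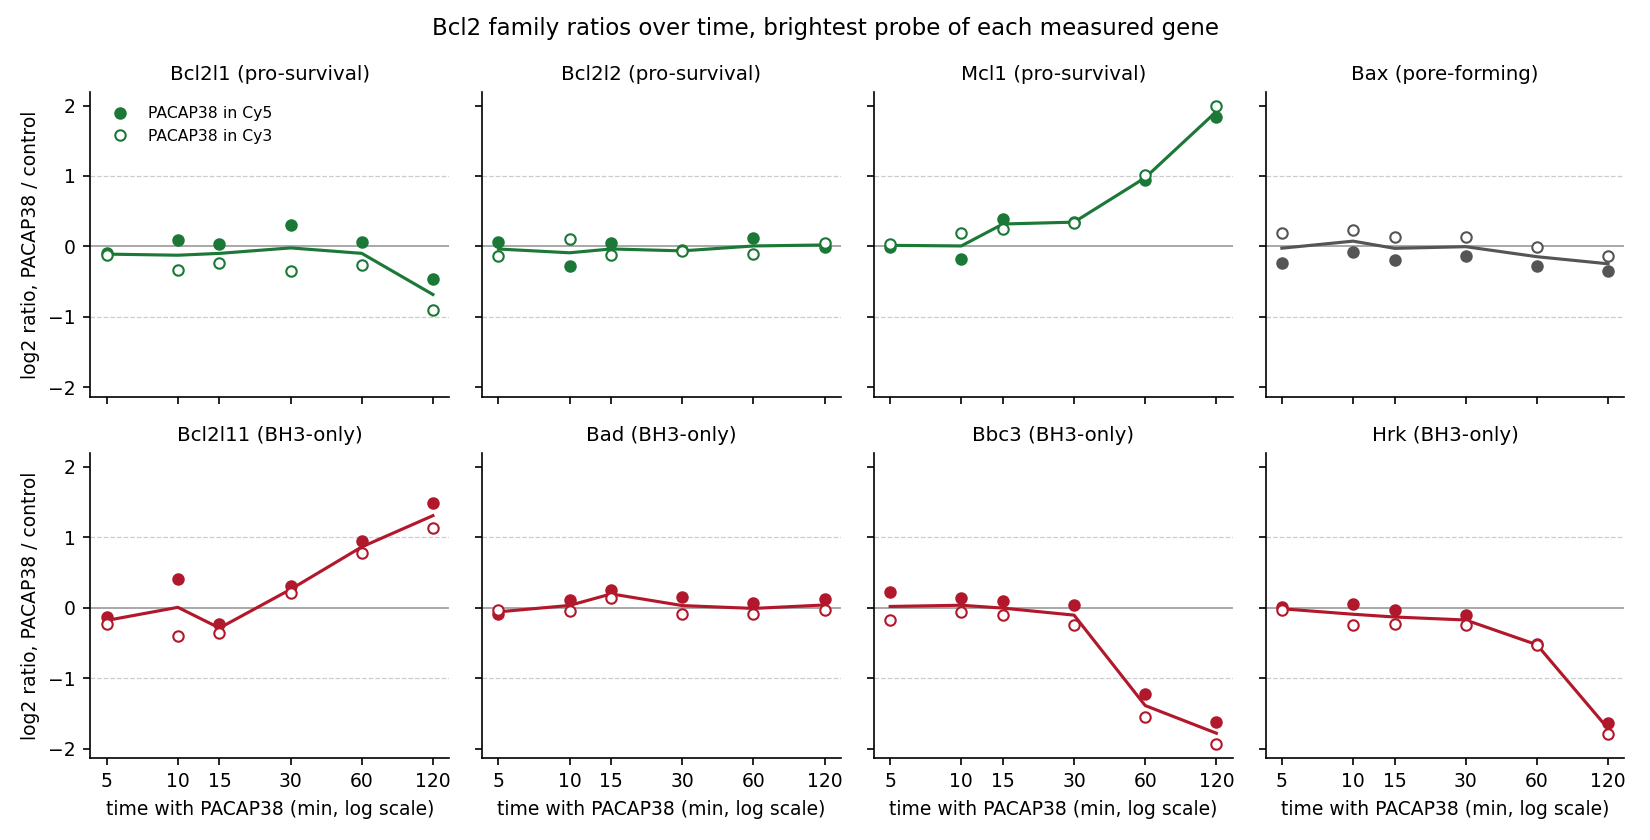
Log2 ratio of PACAP38 to control (y axis) against time on a log scale (x axis, min) for the brightest probe of 8 genes; filled points are arrays with PACAP38 in Cy5, open points with PACAP38 in Cy3, the line is their mean and dashed lines mark a fold of 2 and 0.5. Mcl1 and Bcl2l11 lie above 0 and Bbc3 and Hrk below it at 60 and 120 min, whereas Bcl2l2, Bax and Bad stay near 0; Bcl2 is left out since its signal was at background.

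Mcl1 encodes a short-lived pro-survival protein that binds Bim and Noxa. It was measured by 2 probes of the same transcript, NM_021846, which the array's annotation places on the minus strand of an unplaced part of rat chromosome 2 in build rn4, at chr2_random:2891685-2891744 (A_44_P280965) and chr2_random:2891461-2891520 (A_44_P101211). Where in the transcript they lie was not analysed here. The middle 30 of the 60 bases of each probe are shown since 2 separate stretches of the transcript gave the same pattern.
Mcl1 A_44_P280965: tctaaaacctccagccaccaactacatgct
Mcl1 A_44_P101211: agaatgaatgaaaagggtgaatggaaaggt

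For the brighter of these probes, A_44_P280965, the folds with PACAP38 in Cy5 were 1.00, 0.88, 1.32, 1.28, 1.92 and 3.56 from 5 to 120 min. With PACAP38 in Cy3 they were 1.02, 1.14, 1.18, 1.26, 2.01 and 3.99. Both arrays thus lay on the same side of 1 from 15 min on, and the 2 dye orientations differed least at 30 min. The second probe, A_44_P101211, gave 2.17 and 2.35 at 60 min and 3.97 and 5.02 at 120 min. At 60 min it met the fold limit on both arrays, while the brighter probe missed it on the array with PACAP38 in Cy5. At 120 min the brighter probe had an intensity of 2451 with PACAP38 against 688 in the control on one array and of 2402 against 602 on the other, so PACAP38 was the brighter RNA in both dye orientations. Of the 18586 measured probes at 120 min, 410 had a higher ratio than this one (log2 ratio 1.91 ± 0.11, SD of 2 arrays of the same pools).

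The 250 bases before the annotated start of Mcl1 (RefSeq, build GRCr8, chr2:185907918-185908167, plus strand) are shown beside those of Bcl2l11 (chr3:135819792-135820041, plus strand) and Hrk (chr12:44070562-44070811, minus strand), since these 3 genes were counted. Windows of Bbc3 and Bax were not analysed here. Each is written 5′ to 3′ along its gene. Capitals mark matches on either strand to any of 6 motifs: the cAMP response element CRE (TGACGTCA), its core (TGACG, part of every CRE), the AP-1 site (TGANTCA), the GC box (GGGCGG), the Egr site (GCGNGGGCG) and the FOXO site (GTAAACA).
Mcl1: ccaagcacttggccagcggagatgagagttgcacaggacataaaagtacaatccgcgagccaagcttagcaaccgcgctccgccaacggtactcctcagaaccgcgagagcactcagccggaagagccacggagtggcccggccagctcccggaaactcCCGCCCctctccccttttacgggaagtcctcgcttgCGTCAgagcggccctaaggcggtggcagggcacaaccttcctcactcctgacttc
Bcl2l11: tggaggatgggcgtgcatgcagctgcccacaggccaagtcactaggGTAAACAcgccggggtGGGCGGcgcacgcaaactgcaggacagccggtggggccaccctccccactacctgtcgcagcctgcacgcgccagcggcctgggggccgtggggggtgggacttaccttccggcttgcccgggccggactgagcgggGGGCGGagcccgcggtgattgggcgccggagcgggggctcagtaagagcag
Hrk: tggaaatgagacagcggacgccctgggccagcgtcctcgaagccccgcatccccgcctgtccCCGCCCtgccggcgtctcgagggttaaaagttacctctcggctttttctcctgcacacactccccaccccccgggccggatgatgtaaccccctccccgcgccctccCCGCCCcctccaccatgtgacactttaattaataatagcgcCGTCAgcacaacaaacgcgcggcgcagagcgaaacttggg

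The CRE core stood once before Mcl1, beginning 55 bases upstream of the gene start, and once before Hrk, 40 bases upstream. It also stood 64 and 54 bases before Pmaip1, the gene with no probe, so 3 of the 8 listed genes with a window held one. The Bcl2l11 window held no CRE core. A CRE core was found in 18.2% of all 33469 RefSeq windows, so a gene with a higher and a gene with a lower ratio shared a sequence found in many others. The FOXO letters stood 204 bases before Bcl2l11 and are found in 3.21% of all windows. Of the 8 listed genes with a window the same letters also stood before Bad, whose ratio stayed near 1. GC boxes stood before Mcl1 (91 bases), Bcl2l11 (188 and 51 bases) and Hrk (188 and 81 bases), and also before Bcl2l2 (94 bases) and Pmaip1 (87 bases). These are 5 of the 8 genes, and 30.5% of all windows held one. No full CRE, AP-1 or Egr match lay in the windows of the 8 genes, compared with 1.59%, 6.34% and 4.29% of all windows. A match is a run of letters and not a shown binding site.

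None of the other pro-survival genes was counted at any time, and Bcl2 could not be compared with Mcl1. Bcl2, the founder of the family, gave no usable value. Of its 2 probes A_44_P280776, printed on 10 spots, reached well above background for neither RNA on any array. A_44_P360756 was well above background in the Cy5 channel alone, on both arrays of 60 min, where its folds of 3.38 and 0.63 followed the dye. No fold is given for Bcl2 at the other times.

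Bcl2l1 (Bcl-xL, the main pro-survival protein of many neurons) had 4 probes on the minus strand of rat chromosome 3 in rn4. A_44_P254238 stands for NM_001033670, at chr3:143129343-143129402. The other 3 stand for NM_031535 and lie within chr3:143177104-143178562. Whether all measure the same transcript was not analysed here. The brightest, A_44_P254238, stood between 0.78 and 1.24 on all arrays from 5 to 60 min and at 0.73 and 0.53 at 120 min. It missed the fold limit on both of these arrays, and the spot p-values were 0.0284 and 3.73e-05. A second probe, A_42_P623909, gave 0.83 and 0.58 at 120 min. For the dim probe A_44_P548065 PACAP38 was not well above background at 120 min, and the control was at least 1.695-fold higher by the mean of both arrays. All 3 thus lay below 1 on both arrays at 120 min and none was counted, and the array with PACAP38 in Cy3 gave the lower value each time. The last probe, A_43_P12577 on 10 spots, stayed at background for both RNAs on every array.

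Bcl2l2 (Bcl-w, a pro-survival member prominent in neurons and testis) gave folds between 0.82 and 1.08 on all 12 arrays by its brighter probe, A_44_P550346, and 1.00 and 1.03 at 120 min. Its other probe, A_44_P112788, was dim, with PACAP38 well above background on 7 arrays and the control on 3. It gave 2.67 and 1.76 at 120 min, was not counted, and stood at 1.10 under the normexp correction with loess described below. The 2 Bcl2l2 probes did not give the same value, and the dim one had the control above background on 1 of the 2 arrays.

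Bax, the pore-forming member, was measured by 2 probes well above background on all arrays. A_44_P489512 gave folds from 0.78 to 1.18 and A_43_P11800, on 10 spots, from 0.90 to 1.04. At 120 min they stood at 0.78 and 0.91, and at 0.96 and 0.90. All 4 values were below 1, and none met the fold limit.

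Bcl2l11 encodes Bim, a BH3-only protein that binds all pro-survival members and can activate Bax directly. It had 2 probes of NM_171988 on the plus strand of rat chromosome 3 in rn4, at chr3:115725497-115725556 (A_44_P703840) and chr3:115722606-115722665 (A_44_P508055). Their middle 30 bases are shown since they lie apart in the gene and both gave higher ratios.
Bcl2l11 A_44_P703840: ttagattaggaagtcatgtttcactcgtca
Bcl2l11 A_44_P508055: cgagaggcggaagaccacccgcaaatggtt

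The brighter probe, A_44_P703840, had folds of 0.92, 1.32, 0.85, 1.24, 1.93 and 2.80 from 5 to 120 min with PACAP38 in Cy5. With PACAP38 in Cy3 they were 0.85, 0.76, 0.78, 1.16, 1.71 and 2.18. The 2 orientations disagreed in direction at 10 min and lay on the same side of 1 at all other times, below it at 5 and 15 min and above it from 30 min. Its intensities at 120 min were 1414 with PACAP38 against 506 in the control, and 1170 against 535. The dimmer probe, A_44_P508055, gave 1.71 and 1.73 at 60 min and 3.58 and 3.17 at 120 min, with intensities of 184 and 134 against 51.5 and 42.3. Both probes were counted at 120 min and neither at 60 min. At 120 min 716 measured probes had a higher ratio than the brighter one (log2 ratio 1.31 ± 0.25, SD of 2 arrays).

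**Figure D2:**
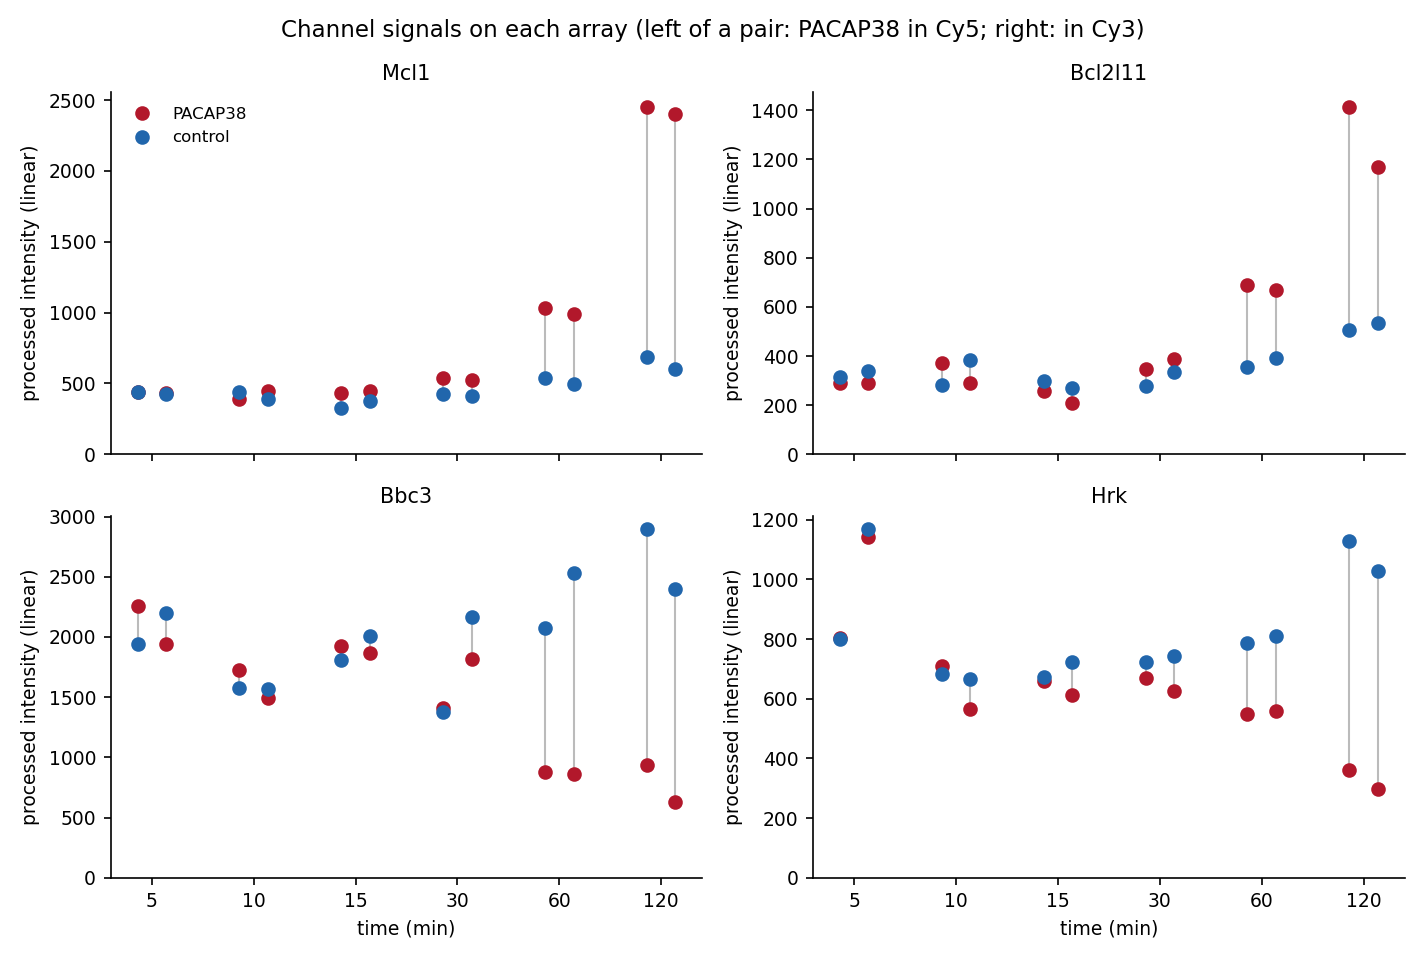
Processed intensity on a linear scale (y axis) of PACAP38 (red) and control (blue) on each array by time (x axis, min) for the brightest probe of Mcl1, Bcl2l11, Bbc3 and Hrk; each vertical line joins the 2 channels of 1 array, with PACAP38 in Cy5 on the left of a pair and in Cy3 on the right. PACAP38 lies above the control on both arrays at 120 min for Mcl1 and Bcl2l11 and below it for Bbc3 and Hrk; intensities of different arrays were not scaled together.

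The plot of channel signals shows that the control also differed between arrays, from 327 to 688 for the brighter Mcl1 probe and from 1374 to 2895 for Bbc3. These intensities come from arrays that were not scaled together, so only the 2 channels of 1 array were set against each other.

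Bbc3 encodes Puma, a BH3-only protein that binds all pro-survival members. It had 1 probe, A_44_P437945 (NM_173837), to which the array's annotation gives no position in the genome. It is shown since it alone carries the result for this gene.
Bbc3 A_44_P437945: tgtacatgcactgctgtagatatactggaa

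From 5 to 30 min the folds of Bbc3 lay between 0.84 and 1.16 on all 8 arrays. At 60 min they were 0.43 and 0.34 and at 120 min 0.32 and 0.26, and both time points were counted as lower. The intensities at 60 min were 883 with PACAP38 against 2074 in the control and 865 against 2528. At 120 min they were 935 against 2895 and 626 against 2395. Both arrays thus showed less Bbc3 signal with PACAP38 at 60 and at 120 min, and no array did so by the fold limit before 60 min. Only 143 of the 18586 measured probes had a lower ratio than Bbc3 at 120 min, and 121 of 19690 at 60 min. Its log2 ratio at 120 min was -1.78 ± 0.22 (SD of 2 arrays).

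Hrk encodes harakiri, a BH3-only protein that binds Bcl2 and Bcl-xL and is known from neurons deprived of nerve growth factor. It had 3 probes on rat chromosome 12 in rn4. Those at chr12:39522813-39522872 (A_44_P1042952) and chr12:39520548-39520607 (A_42_P768355) lie on the minus strand and stand for NM_057130. The third, A_44_P158073, at chr12:39522702-39522761, stands for a cDNA read and is placed on the plus strand, opposite to the others. The middle 30 bases of all 3 are shown since the third did not behave like the others.
Hrk A_44_P1042952: actctcccgtagtaatggaaaccacgtatt
Hrk A_42_P768355: cagggtaaggggtatctaatgtgcaaacgg
Hrk A_44_P158073: gaagtcagatctcatagaaaaaacaggcat

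The brightest Hrk probe, A_44_P1042952, had folds of 1.00, 1.04, 0.98, 0.93, 0.70 and 0.32 from 5 to 120 min with PACAP38 in Cy5. With PACAP38 in Cy3 they were 0.98, 0.85, 0.85, 0.84, 0.69 and 0.29. Both orientations lay below 1 from 15 min on, and at 60 min they differed by less than at any other time. The intensities at 120 min were 363 with PACAP38 against 1130 in the control, and 296 against 1029. A_42_P768355 gave 0.63 and 0.79 at 60 min and 0.40 and 0.39 at 120 min. Both probes were counted as lower at 120 min and neither at 60 min, and 165 measured probes had a lower ratio at 120 min than the brightest one (log2 ratio -1.72 ± 0.11, SD of 2 arrays).

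The third Hrk probe, A_44_P158073, followed the dye and not the RNA. Its Cy3 channel was the brighter one on all 12 arrays, with folds of 0.17 to 0.34 where PACAP38 was in Cy5 and of 2.76 to 7.29 where it was in Cy3. It was counted at no time point, since its 2 arrays never lay on the same side of 1. On either array alone it would have met the limits at 10, 15, 30, 60 and 120 min.

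Bad, a BH3-only protein that survival kinases inactivate by phosphorylation, was measured by 2 probes of NM_022698, both well above background on all 12 arrays. A_44_P991565 gave folds from 0.94 to 1.19 and stood at 1.08 and 0.97 at 120 min. A_44_P199624, whose 60 bases span 496 bases of chromosome 1 in rn4 (chr1:209617478-209617973), gave folds from 0.89 to 1.36 and 1.36 and 1.02 at 120 min. Neither was counted at any time.

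**Figure D3:**
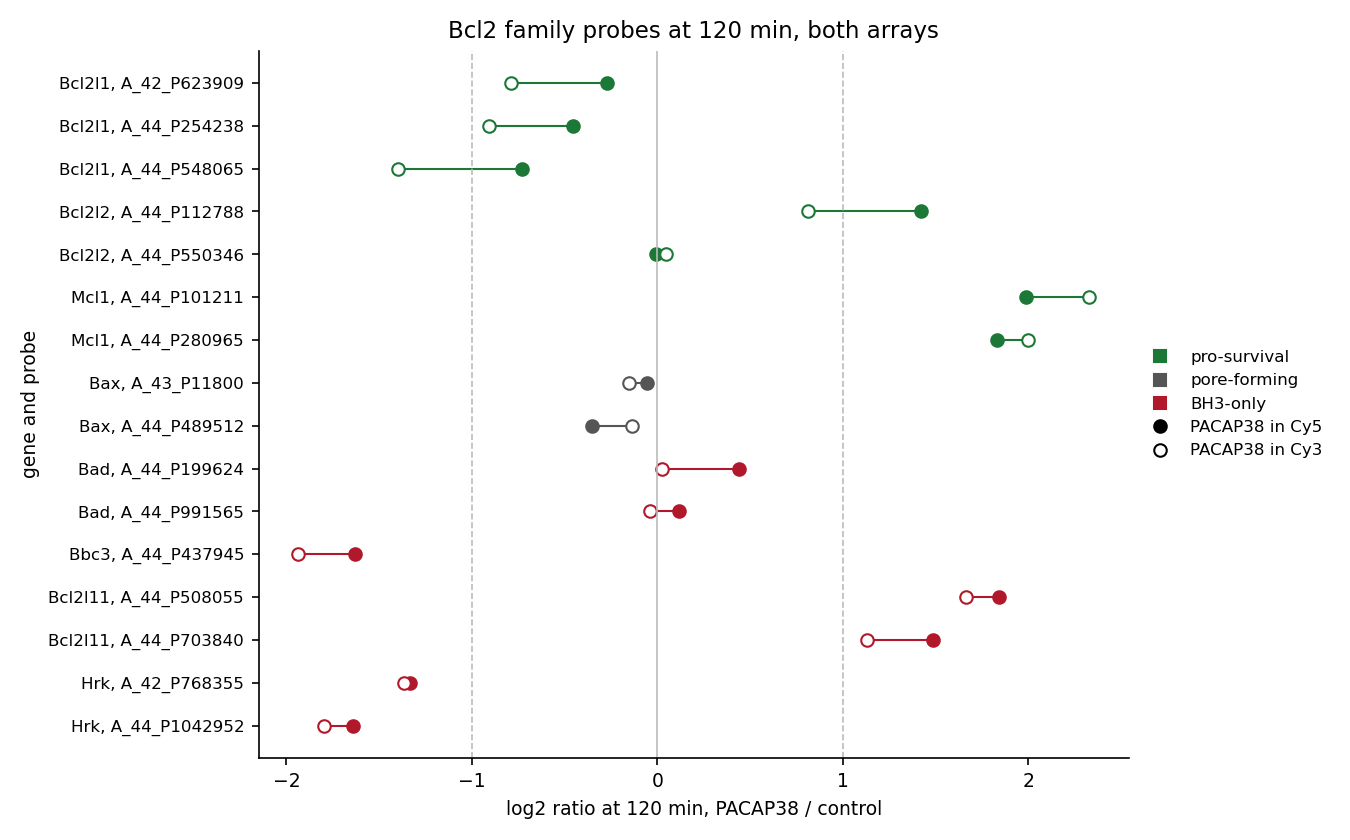
Log2 ratio of PACAP38 to control at 120 min (x axis) for 16 of the 17 measured probes (y axis, gene and probe; the dye-following Hrk probe is left out), coloured by the role of the protein; filled points have PACAP38 in Cy5, open points in Cy3, and dashed lines mark a fold of 2 and 0.5. The probes of Mcl1, Bcl2l11, Bbc3 and Hrk lie beyond the dashed lines on both arrays.

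The plot of all probes at 120 min puts the 2 dye orientations side by side. Only for the 7 counted probes did both points lie beyond a fold of 2 in the same direction. Over the brightest probe of each gene, 8 genes were measured at 120 min, 2 were counted as higher and 2 as lower, and the median log2 ratio was -0.11. Over all 14603 measured genes the median was -0.04, with 605 higher and 557 lower. The family as a group thus had a median near that of all genes while its counted members lay on both sides.

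**Figure D4:**
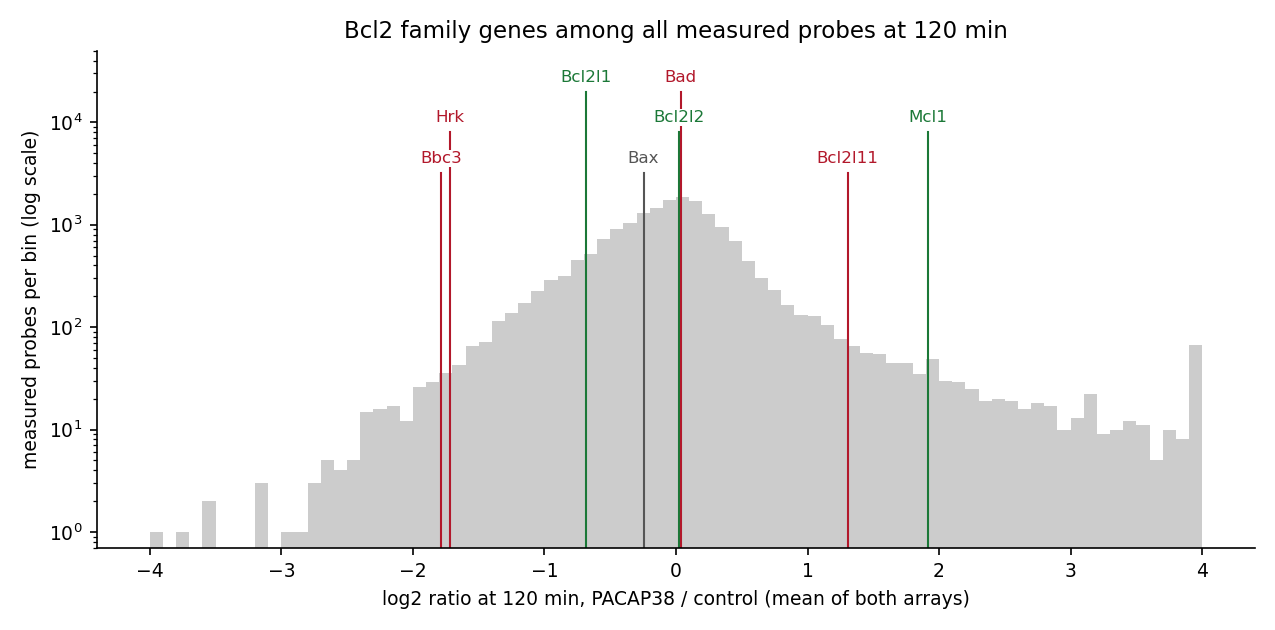
Number of measured probes per bin of 0.1 on a log scale (y axis) against the log2 ratio at 120 min (x axis, mean of both arrays) for all 18586 measured probes, with the brightest probe of 8 Bcl2 family genes as labelled lines coloured by role; ratios beyond 4 are placed in the outermost bins. Bbc3 (-1.78), Hrk (-1.72), Bcl2l11 (1.31) and Mcl1 (1.91) lie in the flanks of the distribution, and Bax, Bcl2l2 and Bad in its centre.

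The change with time was tested across the 6 time points, which are separate RNA pools. The log2 ratio of 20265 probes was regressed on log2 time with limma, with Benjamini-Hochberg adjustment over all of them. In the whole array 0.523% of the probes rose and 0.202% fell at an adjusted p below 0.05. None of the 18 Bcl2 family probes in the fit passed, and 7 had an unadjusted p below 0.05, as had 5817 of all probes. These 7 were the probes of Mcl1, Bcl2l11, Bbc3 and Hrk without the dye-following one. In this limma fit the brightest probe of Mcl1 had a slope of 0.40 ± 0.074 (SE) log2 units per doubling of time with an adjusted p of 0.0695, and that of Bcl2l11 0.34 ± 0.063 with 0.0695. The slope of Bbc3 was -0.43 ± 0.092 with an adjusted p of 0.0772 by limma, and that of the brightest Hrk probe -0.32 ± 0.088 with 0.0963.

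The side of the threshold depended on the fit. Where only the 13939 probes well above background in both channels on all 12 arrays were fitted, 5 of the 13 Bcl2 family probes among them passed: both of Mcl1, the brighter of Bcl2l11, that of Bbc3 and A_42_P768355 of Hrk, with limma's adjusted p from 0.0386 to 0.0485. In that fit 473 probes of the array rose and 503 fell. With time in minutes 8 passed, the same 7 and the brightest Bcl2l1 probe, as did 2071 rising and 3266 falling probes of the array. With the slide as a block no probe of the array passed limma's test, 951 had an unadjusted p below 0.05, among them 2 of the Bcl2 family (both of Bcl2l11), and the smallest adjusted p of a Bcl2 family probe was 0.895. The slopes of the brightest probes in that fit were 0.32 ± 0.23 (SE) for Mcl1, 0.39 ± 0.12 for Bcl2l11 and -0.44 ± 0.28 for Hrk, and that of Bbc3 was nearer to 0, at -0.16 ± 0.13. The 60 and 120 min arrays lay on 1 slide of their own, so slide and late time cannot be fully told apart. Without the 120 min arrays the slope of the brightest Hrk probe was -0.13 ± 0.038 and that of Mcl1 0.26 ± 0.059. Those of Bcl2l11 and Bbc3 were 0.28 ± 0.083 and -0.35 ± 0.13. In that fit no probe of the array passed limma's test, and the smallest adjusted p of a Bcl2 family probe was 0.242.

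The size of the folds depended on the scaling. The processed intensities were compared with a normexp background correction (offset 50) of the scanner signals, followed by loess within each array or by median centring alone. The offset is added to both channels, so it draws ratios toward 1, most where the signal is low. The fold limit stayed at 2, and how much of each change came from the offset was not tested. At 120 min the brighter Mcl1 probe went from 3.77-fold to 2.75-fold with loess and 2.37-fold with median centring. The dim Bcl2l11 probe A_44_P508055 went from 3.37-fold to 1.34-fold and 1.31-fold, and the brighter one from 2.47-fold to 1.80-fold and 1.57-fold. Bbc3 moved least, from 0.29-fold to 0.37-fold and 0.32-fold. The brightest Hrk probe went from 0.30-fold to 0.48-fold and 0.42-fold, and A_42_P768355 from 0.39-fold to 0.71-fold and 0.66-fold. None of these directions turned. The probes still counted at 120 min were both of Mcl1, that of Bbc3 and the brightest of Hrk with loess, and both of Mcl1 and that of Bbc3 with median centring, where the brightest Hrk probe stood at 0.51 and 0.35. Neither Bcl2l11 probe was counted under these settings. At 60 min Mcl1 and Bbc3 were not counted under either. Median centring moved the median log2 ratio of all measured probes from -0.03 to -0.11 at 120 min and from -0.01 to 0.11 at 15 min.

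**Figure D5:**
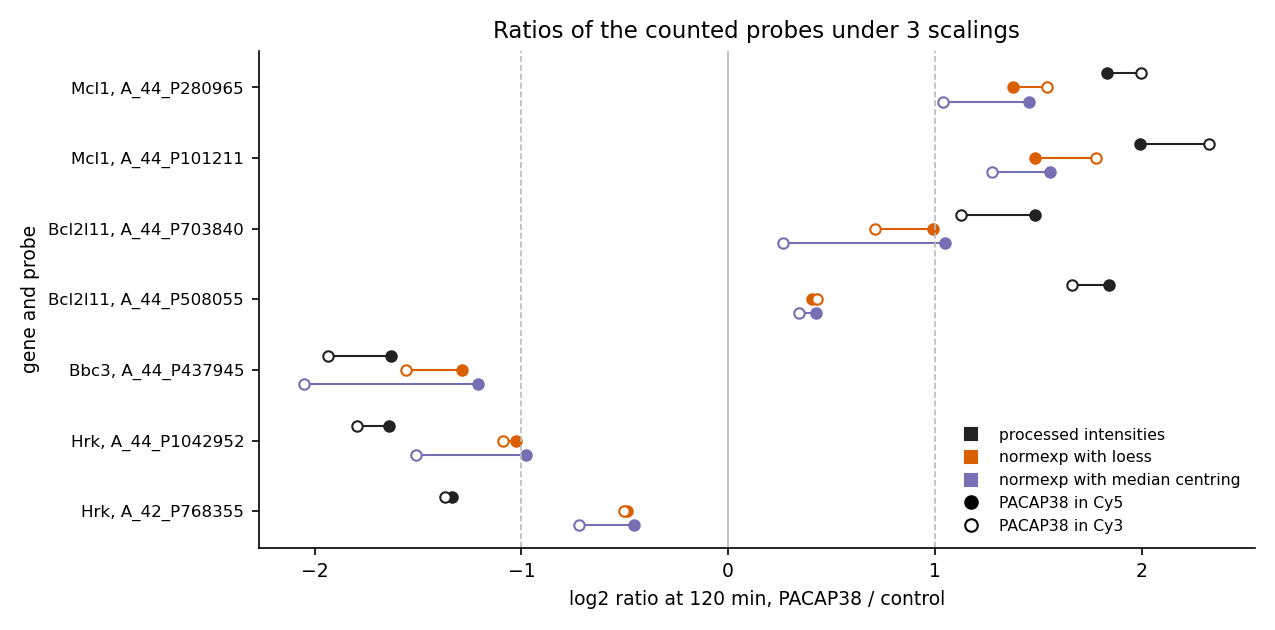
Log2 ratio of PACAP38 to control at 120 min (x axis) of the 7 counted probes (y axis) under 3 scalings, coloured by scaling; filled points have PACAP38 in Cy5, open points in Cy3, and dashed lines mark a fold of 2 and 0.5. All points keep their side of 0 and lie nearer to it under both normexp settings, except Bbc3 with PACAP38 in Cy3 under median centring.

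Of other Bcl2 family genes, 16 of 17 listed had a probe and 10 were measured at 120 min. Of these 10, 1 was counted as lower and 0 as higher, with a median log2 ratio of -0.08. Over the brightest probe of all 14603 measured genes 4.14% were counted as higher and 3.81% as lower at 120 min, and 1 of 10 is too few to be told from that share. The counted one was Bik, a BH3-only protein of the endoplasmic reticulum, at 0.59-fold at 60 min and at 0.19 and 0.20 on the arrays of 120 min. Bok, a relative of Bax, gave 2.45 and 1.79 and was not counted, and Bak1, the partner of Bax in forming pores, stood at 1.09 and 0.96.

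Of the genes that act after the mitochondrion is opened and of the death receptors and their inhibitors, 23 of 24 had a probe and 20 were measured at 120 min, with a median log2 ratio of -0.22. Casp6, an executioner caspase, was counted as lower with 0.46 and 0.48, and none was counted as higher. This is 1 of 20 genes, a share near that of all genes counted as lower. Cycs, which encodes cytochrome c, gave 1.72 and 2.17 and was not counted.

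Of the 19 regulators of Bcl2 family genes and proteins, all had a probe and all were measured. From 10 to 30 min 1 of the 19 was counted as higher, at 60 min 2 and at 120 min 1, and none as lower. Over the brightest probe of all measured genes 0.18%, 0.25%, 0.66%, 1.78% and 4.14% were higher at these 5 times. Counts of 1 or 2 are small, and the difference was not tested. The median log2 ratio at 120 min was 0.29, against -0.04 over all genes. Jun, an AP-1 subunit known to act on BH3-only genes in neurons, was counted as higher from 10 to 60 min, at 2.91-fold, 5.88-fold, 9.38-fold and 4.02-fold, and stood at 1.53-fold at 120 min. Bag3, a co-chaperone that binds Bcl2 and Hsp70, was higher at 60 min (4.78-fold) and 120 min (6.41 and 6.19). Foxo3 stood at 0.70 and 0.73 at 120 min and Foxo1 at 0.81 and 0.50, and neither was counted. Jun was counted first at 10 min, Bbc3 and the second Mcl1 probe at 60 min, and the brighter Mcl1 probe, Bcl2l11 and Hrk at 120 min. These differences in timing were not tested, and under both normexp settings neither Bbc3 nor Mcl1 was counted before 120 min. None of the genes of these 3 lists passed the slope test by limma.

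For each counted gene the 3 genes with the closest ratios over all 12 arrays were found among 11184 genes well above background on all of them, by Euclidean distance of log2 ratios. Nearest to Mcl1 was Inafm2 (distance 0.36), then Rnf139, with 2.13-fold and 3.53-fold at 60 and 120 min, and Gja4. Nearest to Bcl2l11 was Pde4d, a cAMP phosphodiesterase (0.50, with 1.79-fold and 2.44-fold at these times), then 2 cDNA reads. Nearest to Bbc3 was MGC95210 (0.56, with 0.43-fold and 0.29-fold), then Phf23 and Trmt5. Nearest to Hrk was Tefm, a mitochondrial transcription elongation factor (0.34, with 0.66-fold and 0.31-fold), then Engase and Tab1. The median distance to all genes was 3.30 for Mcl1 and 2.58 for Hrk.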

How the data were processed

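RNA pools of PC12 cells (PACAP38 and control, 6 time points) were measured on 12 two-colour arrays. The authors scanned them and made the intensity values with Agilent's Feature Extraction, version 12.0.3.1 per the file headers and 11.0.1.1 per the labels: background-subtracted, detrended and LOWESS dye-normalized. The deposited log10 ratios are of Cy5 over Cy3, and the deposited p-value of a spot is that software's. The deposited flags (control, outlier, well above background) were used as given.

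Here ratios were taken from the processed intensities and turned by the dye orientation in the titles. Outlier spots were left out, and spots of 1 probe were averaged on the log2 scale. The brightest probe is a gene's value. All 10 members are named, other genes where a probe was counted or as background for a list. Bounds used loess and Aquantile normalized channels. The slope test used limma 3.58.1 in R 4.3.3 and was tested on simulated data. Other steps used Python 3.11.15, pandas 2.3.3 and numpy 2.4.6. Members and lists were chosen with earlier results of these data known. The alternatives were other scalings, 1 array alone, other limits, filters, time scales, the slide as a block and leaving out time points. The number of arrays limits the precision. Some genes of the lists are not reported here by name.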

Additional observations from a re-analysis of the deposited data

How the results depend on the processing

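The number of Bcl2 family probes counted at 60 min, 2 with the processed intensities, was 0 with normexp and loess and 0 with normexp and median centring. It was 4 on the array with PACAP38 in Cy5 alone and 4 on the other alone, each with the dye-following Hrk probe and the first also with the Bcl2 probe whose folds followed the dye, 5 at a fold limit of 1.5 and 5 with no fold limit. At 120 min it was 7, and 4 and 3 under the 2 normexp settings, where both Bcl2l11 probes and 1 Hrk probe, and with median centring both Hrk probes, were no longer counted. The other 7 alternatives there gave 7 to 9. At 10, 15 and 30 min each array alone gave 1, the dye-following Hrk probe, where both together gave 0. Of the slopes, none passed in the fit as described, 5 with the filter on both channels of all arrays and 8 with time in minutes, and 0 in each of the other fits. No direction of a counted gene turned. Gene ratios were set against their SD where each RNA was well above background on at least 1 array of the time point. Of these 49 ratios, 16 moved by more than the SD of the 2 arrays with normexp and loess. With median centring 25 did, and with the mean of all probes of a gene 11. The 49 include Bcl2 at 60 min, whose folds followed the dye and whose SD was 1.715. The offset of 50 exceeds the signal of the dimmest probes, so their normexp ratios lie nearer to 1 by construction. Each ratio already pairs both RNAs of 1 array, and the 2 dye orientations of a time point were averaged. The labels give no replicate numbers, and time points were linked only by the slide, whose fit as a block is among those with 0. Signal over background limits both Bcl2 probes, 2 Bcl2l1 probes (1 of them at 120 min), 1 Bcl2l2 probe and the dye-following Hrk probe, and pooled RNA leaves the spread between cultures unknown.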
